A study of Mus musculus with 10 samples.

Results

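The Hox genes of the mouse are homeobox genes grouped in the Hoxa, Hoxb, Hoxc and Hoxd clusters, and 48 probe sets for 33 of them were read here on arrays of the embryonic ovary. A probe set was included when its only annotated gene symbol was Hoxa, Hoxb, Hoxc or Hoxd followed by a number. The 48 were part of 45037 non-control probe sets, and the 33 genes were part of 18193 genes that had a probe set with a single symbol. The 3 probe sets that carry several Hox symbols were left out. Hoxa was represented by 9 genes and 16 probe sets, Hoxb by 9 genes and 11 probe sets, Hoxc by 7 genes and 11 probe sets, and Hoxd by 8 genes and 10 probe sets.

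The series holds 10 single-channel arrays of mouse ovary at 5 stages of embryonic development (E and the day), with 2 independent preparations per stage. The stages were E11.5 and E12.5, followed by E14.5, then E16.5, and last E18.5. The labels give no strain, genotype, number of animals or treatment for any stage, so the groups differ only by age as far as they say. Values are array signals scaled to a common 75th percentile, and a change is the difference of stage means of log2(signal + 16), with its standard error (SE). Since the tissue was read in bulk, fewer cells of a type and less RNA per cell cannot be told apart in any value here.

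Hox proteins are transcription factors that bind DNA through the homeodomain, a fold that reads a short core of the letters TAAT, and they assign identity along the body axis. Genes at the same place in the different clusters form a paralog group, and low paralog numbers are expressed towards the head and high numbers towards the tail. They bind DNA together with the TALE homeodomain proteins of the Pbx, Meis and Pknox families, and Polycomb and Trithorax proteins keep the clusters silent or active. In the urogenital system the Abdominal-B type genes, those of the high paralog numbers, are best known for patterning the Müllerian duct into oviduct, uterus and vagina.

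The 250 bases before the annotated start are shown for 4 genes that the results turn on: 3 genes of the Hoxd cluster with consecutive start sites, Hoxd9, Hoxd8 and Hoxd3, of which Hoxd8 alone was not called lower, and Hoxa5, whose probe sets disagreed. They are RefSeq sequences of GRCm38.p6, 5′ to 3′ on the strand of the gene. Capitals mark, on either strand, TAAT (the homeodomain core), TGATNNAT (a core bound by Hox with Pbx), CCAAT (the CCAAT box) and TATAAA (the TATA box).
Hoxd9 promoter, chr2:74697513-74697762, strand +: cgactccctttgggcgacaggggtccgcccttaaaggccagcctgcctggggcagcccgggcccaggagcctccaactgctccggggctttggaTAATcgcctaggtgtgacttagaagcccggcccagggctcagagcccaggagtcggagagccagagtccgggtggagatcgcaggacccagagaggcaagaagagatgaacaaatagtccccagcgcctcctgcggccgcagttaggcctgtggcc
Hoxd8 promoter, chr2:74704365-74704614, strand +: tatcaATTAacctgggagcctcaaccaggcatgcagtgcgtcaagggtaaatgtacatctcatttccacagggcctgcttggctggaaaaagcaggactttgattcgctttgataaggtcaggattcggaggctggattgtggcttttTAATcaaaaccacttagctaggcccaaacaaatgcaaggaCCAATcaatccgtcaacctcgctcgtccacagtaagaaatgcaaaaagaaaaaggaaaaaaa
Hoxd3 promoter, chr2:74711743-74711992, strand +: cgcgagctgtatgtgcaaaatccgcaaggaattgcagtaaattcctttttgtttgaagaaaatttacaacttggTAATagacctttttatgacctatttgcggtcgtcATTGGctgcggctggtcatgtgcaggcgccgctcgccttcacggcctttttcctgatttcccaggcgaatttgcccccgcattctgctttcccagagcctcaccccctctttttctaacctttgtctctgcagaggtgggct
Hoxa5 promoter, chr6:52204588-52204837, strand -: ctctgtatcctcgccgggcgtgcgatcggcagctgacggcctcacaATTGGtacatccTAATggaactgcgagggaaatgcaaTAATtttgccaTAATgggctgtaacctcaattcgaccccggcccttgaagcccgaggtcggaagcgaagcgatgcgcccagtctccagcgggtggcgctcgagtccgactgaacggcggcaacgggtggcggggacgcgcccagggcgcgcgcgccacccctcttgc

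The Hoxd9 window held 1 TAAT and 13 CG dinucleotides, and none of the other motifs. In Hoxd8 there were 2 TAAT, 1 CCAAT and 6 CG. Hoxd3 had 1 TAAT, 1 CCAAT and 12 CG, and Hoxa5 had 3 TAAT, 1 CCAAT and 28 CG. The table held 24 windows for 22 genes of the clusters. TAAT occurred in 18 of the 24, against 54.9% of all 32851 windows, and CCAAT in 14, against 33.8%. TGATNNAT occurred in 4, against 7.7%, and TATAAA in 4, against 12.4%. The number of CG dinucleotides in a Hox window ran from 2 to 35 and in 19 of the 24 was above 6, the median over all windows. These counts describe the letters of the windows only.

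The arrays of the series were not alike in quality. E12.5 replicate 2 correlated with the other arrays at only 0.418 to 0.470 (log2 values over all probe sets), where the other arrays correlated at 0.873 to 0.964, and it was left out of all tests and values below. E12.5 is therefore replicate 1 alone, and on that array the ratio of the 3′ to the 5′ beta-actin probe set was 10.6, against 1.51 to 2.22 on the 8 others. The deposited scan settings give 3 hybridization dates: E18.5 had a date of its own, E16.5 shared one with E14.5, and E12.5 with E11.5. Stage and hybridization date cannot be told apart except for E12.5 against E11.5 and E16.5 against E14.5. The filter on low signal let 13305 of 18193 genes pass, so passing it does not identify a tissue. All 12 ovarian somatic markers, against which the label ovary was set, passed. From E11.5 to E18.5 5 of them rose and 2 fell (limma), where 13.4% of all genes were higher and 16.6% lower. The median change of the 12 was 0.22. Irx3 (3.27 ± 0.20, SE, adjusted p = 3.2e-07) and Lgr5 (3.17 ± 0.21, adjusted p = 4.76e-07) had the largest changes of the list. The 2 that fell, named after their values were seen, were Wt1 (-1.03 ± 0.18, adjusted p = 0.00134) and Nr5a1 (-0.97 ± 0.25, adjusted p = 0.0127), transcription factors of the gonadal somatic cells. The summed signal of 8 germ cell markers went from 1300 to 1648 at E11.5 to 10796 to 11141 at E18.5.

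A probe set was read as above background when its signal was higher than the 95th percentile of 27 control probe sets for bacterial transcripts on the same array, which lay between 19.5 and 32.9 on the 9 arrays used. By that measure 34 of the 48 Hox probe sets were above background on both arrays at E11.5, 26 at E14.5, 24 at E16.5 and 20 at E18.5. The share of all probe sets above background at each stage was not computed, and the percentile differed between arrays. These counts therefore cannot show a change particular to the Hox genes. Of the 33 genes 25 were above it on both arrays of at least 1 of these 4 stages. The other 8 were Hoxa7, Hoxb5, Hoxb7, Hoxb13, Hoxc13, Hoxd1, Hoxd11 and Hoxd12, which lie at various places of the clusters. Hoxb13 at 1.05 to 4.36, Hoxb5 at 4.11 to 14.2 and Hoxd12 at 4.05 to 9.90 were under the percentile on all 9 arrays. The other 5 were above it on 1 to 4 arrays, as Hoxa7 was at 53.0 on E11.5 replicate 1 and Hoxd11 at 36.7 at E12.5.

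From E11.5 to E18.5 the Hox genes that changed all fell. Of 19 genes that passed the filter on low signal, 7 were lower at E18.5, 0 higher and 12 not called (limma, adjusted p under 0.05), where 16.6% of the 13305 genes tested were lower and 13.4% higher. No Hox gene was higher at an unadjusted p under 0.05 either, where 19.5% of all genes were, and 12 were lower at that level, where 22.6% of all genes were. The median change over the 19 genes was -0.83, with a range of -2.32 to 0.55, and over all genes it was 0.00. In 18 of the 19 the change was below 0. Hoxa10 met the filter only on E11.5 replicate 2 (55.9) and the E12.5 array (56.2), and Hoxb2 on no array after E14.5. For such genes the filter itself favours a fall, so these counts and the median lean that way. With no filter, 7 of 33 genes were lower and the median change was -0.51. A gene stands here by its tested probe set with the highest mean. Counted by any tested probe set, a count chosen after seeing the data, 10 genes were lower. Hoxa5, Hoxa9 and Hoxb3 then joined Hoxb2, Hoxc5, Hoxc6, Hoxc8, Hoxd3, Hoxd9 and Hoxd10. The share of all genes that were lower by that count was not computed, so the 10 cannot be set against 16.6%. Of the probe sets 12 of 28 passed, all of them lower, where 26.2% of the 27510 tested changed in either direction. The count of 7 genes was the same on values as deposited and with quantile normalization.

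Without a filter, 25 of all 48 Hox probe sets had both E18.5 arrays below both E11.5 arrays, where 25.2% of all probe sets did, and 6 had both above, where 31.6% did.

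**Figure D1:**
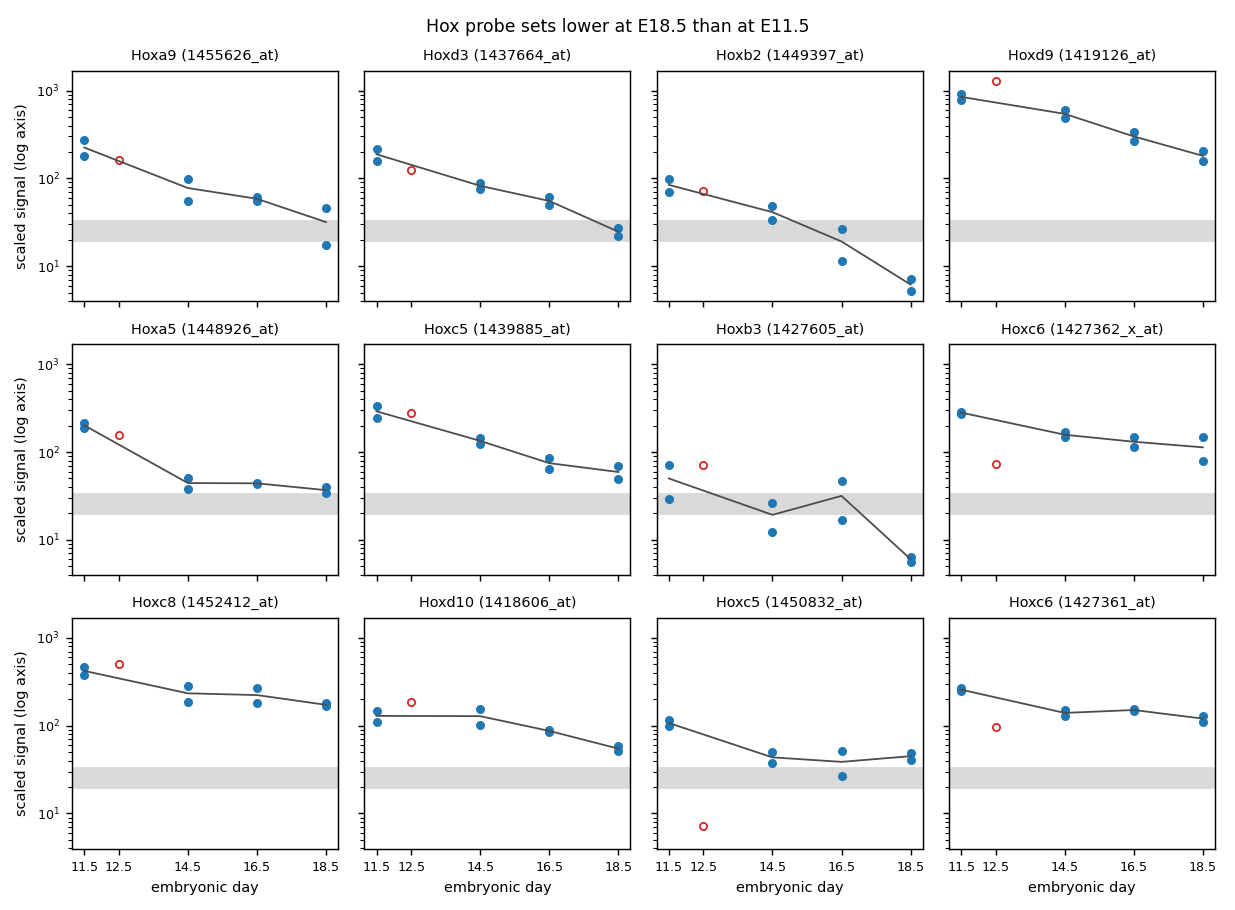
Scaled signal (log axis) against embryonic day for the 12 Hox probe sets called lower at E18.5 than at E11.5, ordered by size of the change. Filled points are arrays, lines join the stage means, open red points are the lone E12.5 array, and the grey band is the range of the control 95th percentile over 9 arrays. Hoxd9 stays far above the band at 158 and 203 at E18.5, while Hoxb2 ends below it at 5.25 and 7.08.

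In the Hoxd cluster 3 of 4 tested genes were lower at E18.5 (median change -1.59), and none of its probe sets was called higher. Hoxd3, a gene of the head end of the cluster that is known for its part in the first neck vertebrae, was 1 of the 3. Its signals were 217 and 159 at E11.5, 123 at E12.5, 88.4 and 76.0 at E14.5, 60.9 and 49.7 at E16.5, and 27.2 and 22.2 at E18.5. Each of the 4 replicated stages lay wholly below the stage before it. The change from E11.5 to E18.5 was -2.32 ± 0.26 (SE, n = 2 and 2), with a limma adjusted p of 5.11e-05. Hoxd3 thus fell to 0.201 of its early value of signal + 16. At E18.5 only 1 of its arrays was above the control percentile. The order of the falls depended on the value added before the logarithm: with 1 in place of 16, Hoxb2 (-3.57) lay below Hoxd3 (-2.87), and with 64, Hoxd9 (-1.90) did (Hoxd3, -1.50). The earlier interval to E14.5 was -1.04 ± 0.26 (adjusted p = 0.0400), and that call was lost without any 1 of the 4 arrays of those stages (adjusted p = 0.067 to 0.256).

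Hoxd9, an Abdominal-B type gene that acts in the limb and the lower spine, fell about as far from a higher signal. The arrays read 791 and 905 at E11.5, 1282 at E12.5, 483 and 603 at E14.5, 333 and 268 at E16.5, and 203 and 158 at E18.5. Again no stage overlapped the next among the replicated stages, and the E12.5 array was the highest of the 9. The change over the whole period was -2.14 ± 0.21 (SE, limma adjusted p = 1.48e-05), to 0.227 of the early value of signal + 16. Between E14.5 and E16.5, stages that shared a hybridization date, it was -0.82 ± 0.21 (adjusted p = 0.0521).

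Hoxd10, known for its part in lumbar motor neurons and the limb, was the third of these genes. Signals of 149 and 110 at E11.5, 185 at E12.5 and 103 and 154 at E14.5 were followed by 88.9 and 85.7 at E16.5 and 58.4 and 51.3 at E18.5. The E11.5 and E14.5 arrays overlapped, and both late stages lay below them. The change was -1.03 ± 0.26 (SE; adjusted p = 0.00981), with an interval of -0.02 ± 0.26 up to E14.5. Without E11.5 replicate 1 the change was -0.83 (adjusted p = 0.0897), and without E18.5 replicate 2 it was -0.96 (adjusted p = 0.0594).

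Hoxd8, whose annotated start lies between those of Hoxd9 and Hoxd3, was not called. Hoxd4, which starts inside the annotated span of Hoxd3, was not among the genes read. The Hoxd8 values are given by probe set. Its probe set 1431099_at read 536 and 410 at E11.5, 333 at E12.5, 242 and 373 at E14.5, 330 and 341 at E16.5, and 301 and 306 at E18.5. The late arrays lay below E11.5 but inside the range of the E14.5 pair. The change was -0.60 (95% confidence interval -1.09 to -0.11, adjusted p = 0.0665), and for the other probe set, 1433638_s_at, it was -0.02 (-0.51 to 0.47, adjusted p = 0.959). Hoxd1, Hoxd11, Hoxd12 and Hoxd13 did not pass the filter.

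The transcript Hoxd3os1, named for its place opposite Hoxd3, was picked after its values were seen. Probe set 1460056_at read 237 and 233 at E11.5, 378 at E12.5, 221 and 184 at E14.5, 168 and 123 at E16.5, and 51.7 and 50.7 at E18.5. Most of its decline thus lay after E16.5, where the step was -1.25 ± 0.22 (SE; limma adjusted p = 0.0181), and the whole change was -1.90 ± 0.22 (adjusted p = 5.64e-05). The second probe set of the transcript, 1430263_at, changed by -0.78 ± 0.37 (adjusted p = 0.138). In the Hoxb cluster the transcript Hoxb5os changed by 0.39 ± 0.33 (adjusted p = 0.415).

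In the Hoxc cluster 3 of 6 tested genes were lower at E18.5 (median change -1.17). Hoxc5, a gene of the middle of the cluster that acts in the neck and forelimb region, read 247 and 335 at E11.5, 275 at E12.5, 125 and 143 at E14.5, 85.2 and 64.3 at E16.5, and 68.7 and 49.8 at E18.5 on probe set 1439885_at. All later arrays from E14.5 on were below both E11.5 arrays, and only E16.5 and E18.5 overlapped. The change was -2.02 ± 0.25 (SE; adjusted p = 8.0e-05), with -1.02 ± 0.25 reached by E14.5 (adjusted p = 0.0320), a call lost without E11.5 replicate 2 or either E14.5 array (adjusted p = 0.076 to 0.207). A second probe set, 1450832_at, changed by -1.02 ± 0.34 (adjusted p = 0.0423), and without either array of E11.5 or of E18.5 its adjusted p was 0.102 to 0.202. The third, 1456301_at, changed by 0.03 ± 0.51 (adjusted p = 0.973).

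Hoxc8, known for the thoracic vertebrae and brachial motor neurons, had signals of 468 and 375 at E11.5, 503 at E12.5, 185 and 283 at E14.5, 267 and 180 at E16.5, and 180 and 166 at E18.5. The E11.5 and E12.5 arrays stood above the rest, and E14.5 and E16.5 overlapped. Its change was -1.21 ± 0.25 (SE; adjusted p = 0.00329).

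Hoxc6, which acts in the thoracic region and the forelimb field, read 274 and 289 at E11.5, 73.8 at E12.5, 148 and 167 at E14.5, 148 and 114 at E16.5, and 147 and 79.2 at E18.5 on probe set 1427362_x_at. The lone E12.5 array was the lowest of all, below every later array. The change to E18.5 was -1.26 ± 0.26 (SE; adjusted p = 0.00364), and without E18.5 replicate 2 it was -0.87 (adjusted p = 0.0527). Probe set 1427361_at fell to 0.498 of the early value of signal + 16 (limma adjusted p = 0.00356) and 1427454_at changed by 0.43 ± 0.47 (adjusted p = 0.530). The mean of these probe sets changed by -0.61 (adjusted p = 0.0839). Hoxc9 changed by -1.14 ± 0.48 (adjusted p = 0.0978), Hoxc10 by -0.61 ± 0.38 (0.260) and Hoxc4 by -0.51 ± 0.25 (0.146), which did not pass, and Hoxc13 was not tested.

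In the Hoxb cluster 1 of 5 tested genes was lower (median change -0.62). Hoxb2, known for its part in hindbrain segments, read 98.4 and 70.2 at E11.5, 72.5 at E12.5, 33.8 and 48.6 at E14.5, a mean of 19.1 ± 10.8 (SD, n = 2) at E16.5, and 7.08 and 5.25 at E18.5. No replicated stage overlapped the next, and at E18.5 both arrays were below the control percentile. The E11.5 signal was thus at least 3.40-fold higher than E18.5, measured against that percentile, and the fitted change was -2.16 ± 0.40 (SE; adjusted p = 0.00169).

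Hoxb9, an Abdominal-B type gene of the thoracic region, passed only the F test over the 4 replicated stages (adjusted p = 0.0468). It read 75.7 and 37.4 at E11.5, 66.0 at E12.5, 70.8 and 86.5 at E14.5, 37.0 and 6.86 at E16.5, and 25.4 and 5.05 at E18.5. The pairs of the late stages were far apart, and E16.5 lay below E14.5 on every array. From E11.5 to E18.5 it changed by -1.24 ± 0.48 (SE; adjusted p = 0.0729). Hoxb3 changed by -0.62 ± 0.24 on its brightest probe set, 1456229_at (adjusted p = 0.0689), and by -1.51 ± 0.50 on 1427605_at (adjusted p = 0.0402), whose E18.5 signals of 6.40 and 5.64 were below the control percentile. The E11.5 signal of 1427605_at was at least 1.86-fold higher by that bound, and the call was lost without either E18.5 array (adjusted p = 0.111 and 0.113). That probe set passed the filter only through E11.5 replicate 2 (70.5) and the E12.5 array (70.6), and was not tested without either. Its early signals alone met the filter, and with no filter its limma adjusted p was 0.048. Hoxb4 (-0.03, interval -0.78 to 0.71) and Hoxb6 (-0.17, interval -0.89 to 0.56) did not pass.

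In the Hoxa cluster 0 of 4 tested genes passed by the brightest probe set in the limma test, and 1 was lower at an unadjusted p under 0.05 (median change -0.26). For Hoxa5 and Hoxa9, however, the probe sets of the gene went apart. Hoxa5, which acts in the lung and the neck and upper thorax, had on 1448926_at signals of 214 and 189 at E11.5, 158 at E12.5, 38.3 and 50.4 at E14.5, 44.4 and 43.6 at E16.5, and 33.9 and 39.7 at E18.5. Both E14.5 arrays and all later ones lay far below the E11.5 pair. The change to E14.5 was -1.86 ± 0.26 (SE; adjusted p = 8.42e-04) and to E18.5 -2.04 ± 0.26 (adjusted p = 1.12e-04). Its brightest probe set, 1443803_x_at, read 209 and 187 at E11.5, 62.5 and 180 at E14.5, and 344 and 256 at E18.5, and changed by 0.55 ± 0.38 (adjusted p = 0.305). The suffix _x_at is the maker's mark for probes that may also match other transcripts. The probe set by which Hoxc6 was counted as lower, 1427362_x_at, carries it too.

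Hoxa9, known from blood stem cells and from patterning of the oviduct, split in the same way. On 1455626_at it read 271 and 178 at E11.5, 163 at E12.5, 55.9 and 99.3 at E14.5, 61.8 and 55.2 at E16.5, and 17.6 and 45.9 at E18.5. All arrays from E14.5 on were below the E11.5 pair. The change was -2.37 ± 0.34 (SE; adjusted p = 2.79e-04), and on the brightest probe set, 1421579_at, it was 0.00 ± 0.25 (interval -0.53 to 0.53), from signals of 133 and 104 at E11.5 to 106 and 130 at E18.5.

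Hoxa10, which patterns the uterus, went from 44.8 and 55.9 at E11.5 to 13.9 and 30.4 at E18.5, a change of -0.83 ± 0.38 that did not pass (adjusted p = 0.123). Hoxa11, of the lower uterus, read 38.7 and 43.1 at E11.5, 74.0 at E12.5 and 28.8 and 23.2 at E18.5, and Hoxa13, of the vagina, 30.8 and 40.6 at E11.5 and 16.9 and 53.8 at E18.5. Neither was tested, nor were Hoxa2, Hoxa4 and Hoxa7. Hoxa3 changed by -0.53 ± 0.46 (adjusted p = 0.428). The remaining untested genes of the other clusters were Hoxb1, Hoxb5, Hoxb7 and Hoxb13.

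**Figure D2:**
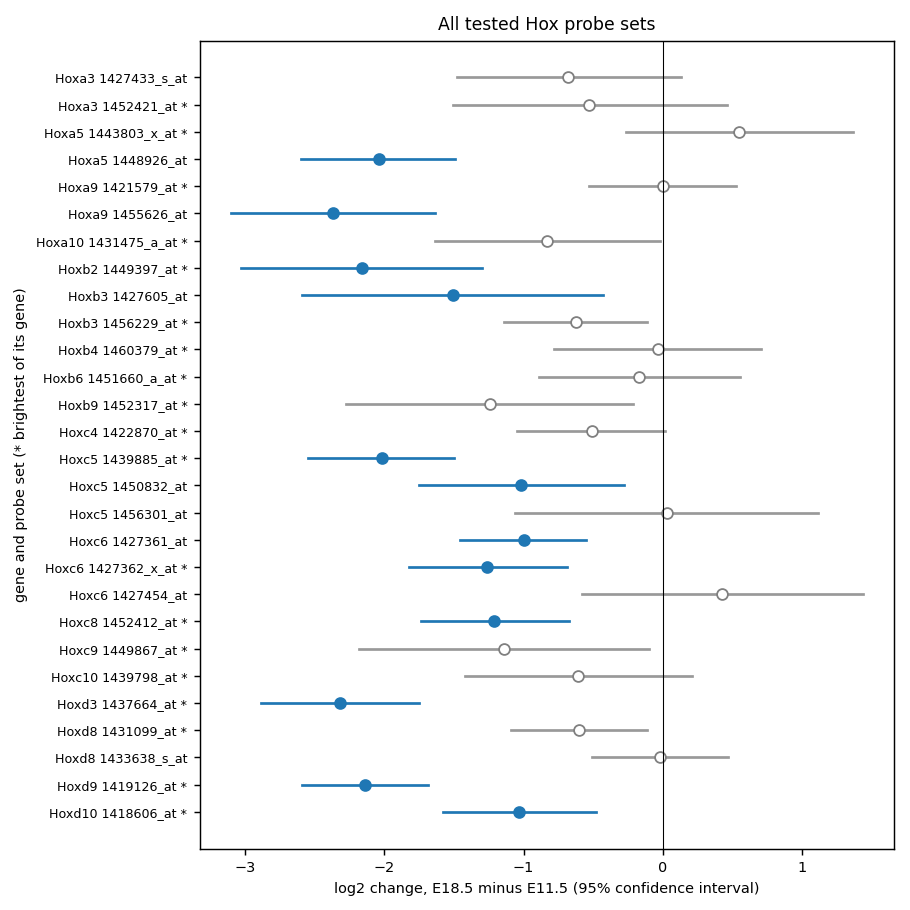
Change in log2 signal from E11.5 to E18.5 for all 28 tested Hox probe sets, with 95% confidence intervals. Filled blue points passed the limma test, and an asterisk marks the brightest tested probe set of each gene. The probe sets of Hoxa5 (-2.04 and 0.55), Hoxa9 (-2.37 and 0.00) and Hoxc5 (-2.02 to 0.03) lie furthest apart.

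Across the 7 genes with more than 1 tested probe set, the probe sets of a gene differed by 0.15 (Hoxa3) to 2.59 (Hoxa5) in their change. For 5 of those genes at least 1 probe set fell, a count for which no share over all genes was computed. This spread bears on any order of the clusters: by the brightest probe set the lower genes were 0 of 4 in Hoxa, 1 of 5 in Hoxb, 3 of 6 in Hoxc and 3 of 4 in Hoxd, whereas any probe set adds 2 genes of Hoxa and 1 of Hoxb. No test of a difference between clusters was made.

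Falls were found at paralog numbers from 2 to 10, which is also the whole span of the tested genes. Of the paralog groups 1 to 4, 2 of 6 genes were lower (median change -0.57), and of groups 5 to 8, 3 of 6 (-0.90). Of groups 9 to 13, 2 of 7 were lower (-1.03), and these 7 were all of groups 9 and 10. Among all genes tested 16.6% were lower. Across the 19 genes, the change had a Spearman rho of 0.04 and a Pearson r of 0.08 with the paralog number, over values from the same 9 arrays. In paralog group 9 the change was -2.14 for Hoxd9 (interval -2.59 to -1.69), -1.24 for Hoxb9 (-2.28 to -0.21) and -1.14 for Hoxc9 (-2.18 to -0.10), so the intervals overlapped. In group 3 it was -2.32 for Hoxd3, -0.62 for the brightest probe set of Hoxb3 and -0.53 for Hoxa3. Differences between genes of a group were not tested.

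**Figure D3:**
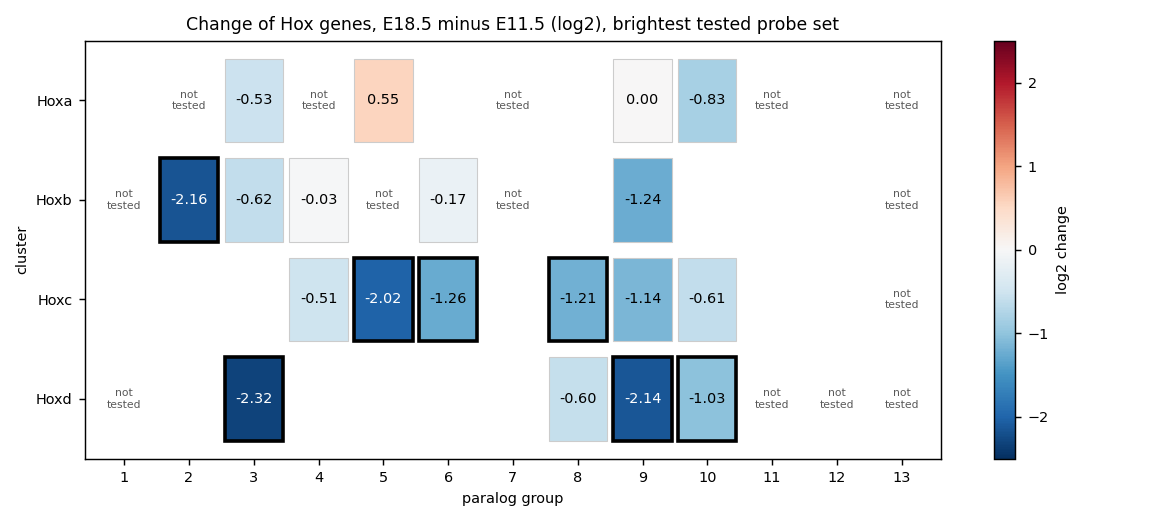
Change in log2 signal from E11.5 to E18.5 by cluster (rows) and paralog group (columns), each gene by its brightest tested probe set. Genes without a value did not pass the filter. Heavy borders mark genes that passed the limma test, among them Hoxd3 (-2.32) and Hoxd10 (-1.03). They stand at paralog numbers from 2 to 10, the same span as all genes with a value. The value of Hoxb2 is against E18.5 arrays under the control percentile.

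The single steps between stages held few calls. The contrasts with E11.5 share its arrays. By E14.5, 2 of 19 genes were lower than at E11.5 (Hoxc5 and Hoxd3), against 2.13% of all genes, and 17 of the 19 changes were below 0, with a median of -0.60 against -0.03 over all genes. On values as deposited, and with quantile normalization, 0 genes passed this step. From E14.5 to E16.5, 0 genes passed by limma, where 3.82% of all genes changed, and 4 were lower and 0 higher at an unadjusted p under 0.05, where 13.3% of all genes were lower and 8.19% higher. From E16.5 to E18.5, 0 passed, where 1.15% of all genes changed, and 2 were lower and 1 higher at an unadjusted p under 0.05, where 6.21% of all genes were lower and 8.15% higher. Over the 4 replicated stages 8 of 19 genes passed the F test, against 28.1% of all genes, and these were the 7 lower genes and Hoxb9. Without E11.5 replicate 1 that count was 3, and without E18.5 replicate 2 it was 5.

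At E12.5 the lone array gave 1 lower gene against E11.5, Hoxc6, where 2.16% of all genes were lower. Its change was -1.73 ± 0.32 on 1427362_x_at (SE; limma adjusted p = 0.00509) and -1.28 ± 0.26 on 1427361_at (adjusted p = 0.00796). The third Hoxc6 probe set, 1427454_at, read 109 and 80.4 at E11.5 and 147 at E12.5 (0.57 ± 0.57, adjusted p = 0.588), and the mean of the probe sets gave -0.81 (adjusted p = 0.136). The Hoxc5 probe set 1450832_at went from 98.9 and 116 to 7.15, which is under the control percentile of that array. Its E11.5 signal was at least 3.93-fold higher by that bound (limma adjusted p = 0.00336). The other Hoxc5 probe sets changed by -0.06 ± 0.30 (1439885_at) and 1.57 ± 0.62 (1456301_at, adjusted p = 0.136). The beta-actin ratio of this array, given above, was far from the others, and its part in these values was not tested. Hoxc10 (1.21 ± 0.46, adjusted p = 0.126) and Hoxd9 (0.59 ± 0.26, adjusted p = 0.174) had their highest signals on this array and did not pass.

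Of the cofactor genes, 4 of 7 tested fell from E11.5 to E18.5 and 0 rose (median change -1.74, against 0.00 over all genes and 16.6% lower). Meis2 went from 1714 and 954 at E11.5 over 1303 at E12.5, 278 and 453 at E14.5 and 183 and 119 at E16.5 to 61.6 and 81.0 at E18.5. Each replicated stage lay below the one before, and the change was -3.90 ± 0.30 (SE; adjusted p = 2.25e-06). Meis1 changed by -2.32 ± 0.21 (adjusted p = 7.24e-06), Pbx2 by -2.14 ± 0.21 (1.55e-05) and Pknox2 by -1.74 ± 0.26 (3.71e-04). These 4 were also lower at E14.5 than at E11.5. Pbx2 fell further from E14.5 to E16.5, which shared a hybridization date (-0.85 ± 0.21, SE, adjusted p = 0.0472). The changes of the remaining 3 from E11.5 to E18.5 ran from -0.66 to 0.55 and did not pass. Of these, Pbx3 and Pknox1, named after their values were seen, changed in single steps. Pbx3 fell by -1.35 ± 0.27 from E16.5 to E18.5 (SE, limma adjusted p = 0.0361), where 1.15% of all genes changed. Pknox1 changed by 1.11 ± 0.28 from E11.5 to the lone E12.5 array. Of the 9 cofactors listed 1 did not pass the filter and 1 had no probe set of 1 symbol.

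Among the Polycomb and Trithorax genes, 4 of 20 tested fell and 1 rose (median change 0.08), where 16.6% of all genes were lower and 13.4% higher. Ezh2, the histone methyltransferase that sets the silencing mark of Polycomb, changed by -1.69 ± 0.23 (SE; adjusted p = 2.04e-04). Phc2 changed by -1.24 ± 0.23 (adjusted p = 0.00177) and Jarid2 by -0.92 ± 0.24 (adjusted p = 0.0143). Cbx8 rose by 1.09 ± 0.36 (adjusted p = 0.0407). Of 8 tested genes upstream of the clusters 1 fell from E11.5 to E18.5, Aldh1a2, which makes retinoic acid (-1.09 ± 0.21, adjusted p = 0.00215). Cyp26b1, which degrades it, read 65.8 and 132 at E11.5 and 11.3 and 9.77 at E14.5, both under the control percentile, and was at least 3.42-fold higher at E11.5 by that bound (adjusted p = 0.0375). Zbtb16, a zinc finger protein that represses Hox genes in the limb, was at least 2.21-fold higher at E11.5 than on the E12.5 array (adjusted p = 0.0287). Against the same shares of all genes, of 10 tested genes that flank the clusters 1 fell, Mtx2 next to Hoxd (-0.70 ± 0.22, adjusted p = 0.0362), and the median change was -0.23.

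Markers of other cells were read beside the Hox genes, and their lists went in different directions. The summed signal of the 33 Hox genes was 3911 to 4280 at E11.5, 4632 at E12.5, 2446 to 2989 at E14.5, 2248 to 2295 at E16.5 and 1901 to 2235 at E18.5. The 8 markers of the mesonephros and its ducts on the array, a neighbouring tissue that expresses Hox genes, summed to 1510 to 1546 at E11.5 and 459 to 560 at E18.5. Nearly all of that decline was Emx2, a homeobox gene that the gonad expresses too (1328 and 1230 to 180 and 252; -2.50 ± 0.22, SE, adjusted p = 6.78e-06). With Emx2 set apart because of its values, the other 7 markers summed to 218 to 280 at E11.5 and 279 to 308 at E18.5. The changes of the 4 of them that were tested ran from -0.25 to 1.04 and did not pass. The control percentile for a single probe set was 19.5 to 32.9, so a sum this low over 7 markers could hardly show a loss of that tissue. Pax8, a defining marker of the ducts named after its values were seen, changed by -0.18 ± 0.28 (adjusted p = 0.664).

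Of 10 stromal markers 5 fell and 3 rose from E11.5 to E18.5. Over all genes, for comparison with this list and those below, 16.6% were lower and 13.4% higher. Tcf21 (-2.33 ± 0.26, SE, adjusted p = 4.99e-05), Twist1 (-1.77 ± 0.45, adjusted p = 0.0112) and Nr2f2 (-1.66 ± 0.20, adjusted p = 7.5e-05), transcription factors of mesenchymal cells, fell, whereas the collagen gene Col1a1 rose by 1.66 ± 0.22 (adjusted p = 1.71e-04). The summed signal of the list was 7905 to 8869 at E11.5 and 8142 to 8787 at E18.5. Germ cell markers rose in 7 of 8 genes and fell in 1, endothelial markers fell in 3 of 5, and all 5 surface epithelium markers rose. Macrophage markers fell in 1 of 4, and of 4 erythroid markers 3 fell, with 1 rising. The 4 hepatocyte markers rose, from a sum of 87.8 to 99.3 at E11.5 to 3172 to 3465 at E18.5. The neural crest and neuron markers summed to 99.9 to 116 at E11.5 and 87.2 to 146 at E18.5, and the skeletal muscle markers to 57.6 to 57.9 and 58.6 to 61.0. The part of any of these cell types in the Hox changes was not tested.

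**Figure D4:**
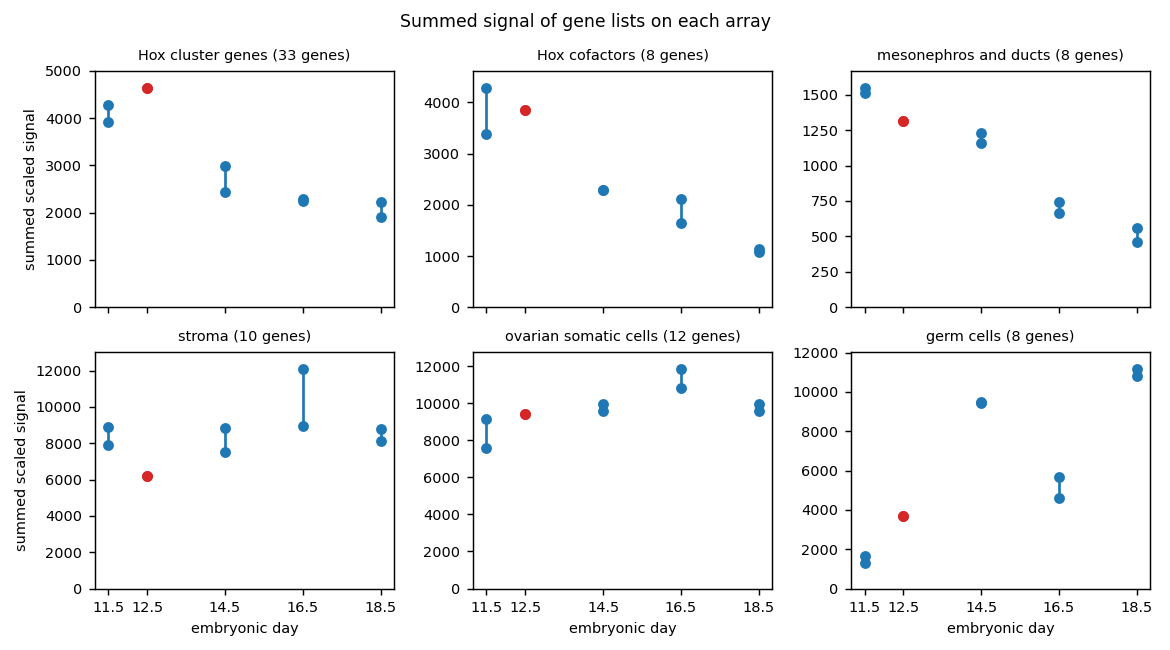
Summed scaled signal of 6 gene lists against embryonic day, with a point for each array (1 array at E12.5, in red) and a line between the arrays of a stage. The Hox sum goes from 3911 to 4280 at E11.5 to 1901 to 2235 at E18.5, the cofactor sum from 3386 to 4276 to 1074 to 1129, and the germ cell sum rises to 10796 to 11141.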

How the data were processed

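RNA of 10 mouse embryonic ovary preparations was extracted with Trizol, biotin-labelled and hybridized to Mouse430_2 arrays, per the labels and the deposited scan settings. The authors deposited an intensity for each probe set of each array, not log-transformed. Which software computed it is not given in the sources used here. Scan and wash settings, deposited as other content without expression values, were used only for the array type and the 3 hybridization dates.

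Gene symbols came from the platform annotation: 34945 probe sets had 1 symbol, 932 several and 9160 none. Each array was scaled to the common 75th percentile of 141.6, and log2(signal + 16) was taken. Probe sets with at least 2 of 9 arrays at or above the median of 47.7 were tested, 27510 in all. Limma 3.58.1 in R 4.3.3 fitted 1 mean per stage over 9 arrays (4 residual degrees of freedom), with an intensity trend, two-sided tests and Benjamini-Hochberg adjustment over all probe sets tested. A call is an adjusted p under 0.05. Precision is limited by having 2 arrays per stage. E12.5 was 1 array, assumed to vary like the other stages. Where a group lay under the control percentile, a fold was bounded by that percentile. The fit was tested on simulated data.

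The members, gene lists and tests were chosen with earlier results of these data known. Per-array values are given for Hox genes that passed a test, and for probe sets of theirs that disagreed. Outside the clusters at most 4 genes per list are named, taken in order of change among those past a contrast, with exceptions marked. The replicate numbers did not pair the arrays (correlations of deviations from -0.07 to 0.04). The alternatives tried are given in the closing section.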

Additional observations from a re-analysis of the deposited data

How the results depend on the processing

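No called result changed direction under any of the alternatives run, but the number of Hox genes called did change. With all 10 arrays, E12.5 replicate 2 included, 0 genes passed for E12.5 against E11.5, 0 for E14.5 against E11.5, 1 for E18.5 against E11.5 and 0 in the F test over 4 stages, and 19 of 20 calls on single probe sets were lost. For E14.5 against E11.5 the count of 2 became 0 on values as deposited, with quantile normalization, with no filter and with no intensity trend, 1 with 1 added before the logarithm, and 4 without the _s_at and _x_at probe sets. For E16.5 against E14.5 it became 1 with 64 added before the logarithm or a filter on the mean signal. The F test gave 4 with no intensity trend. The mean of all probe sets of a gene gave 0 for E12.5 against E11.5. Counting a gene by any tested probe set, chosen after seeing the data, gave 2 for E12.5 and 5 for E14.5, each against E11.5. Leaving out 1 array at a time gave 1 to 1 genes for E12.5 against E11.5, 0 to 2 for E14.5 against E11.5, 0 to 1 for E16.5 against E14.5, 0 to 0 for E18.5 against E16.5, 5 to 8 for E18.5 against E11.5 and 3 to 8 in the F test. The replicate block, which the deviations do not bear out as a pairing, gave 9 for E18.5 against E11.5 and left the other counts as they were. The median change of the Hox genes from E11.5 to E18.5, -0.83, was -0.51 with no filter (33 genes) and -0.62 with a filter on the mean signal. It was -1.21 with 1 added before the logarithm, -0.54 with 64 added, and -0.61 without E18.5 replicate 2. Over the whole array, the share of higher calls from E11.5 to E18.5 was 44.8% with the scaling used, 56.7% without any scaling here and 47.6% after quantile normalization. The tested probe sets had median changes of 0.03, 0.15 and -0.01 in these 3 settings. The cause of these differences was not tested. Probe sets near the control percentile, Hoxb2, Hoxb3 (1427605_at) and most untested Hox genes among them, give bounds more than levels at E18.5.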
